A study of Mus musculus with 8 samples.

Results

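Mammalian cells make cholesterol from acetyl-CoA in a long chain of enzymes, and they hold its level with a pair of opposed transcriptional programmes. When membrane sterol is low, SCAP escorts the SREBP proteins out of the endoplasmic reticulum and they switch on the synthesis genes, a step that the INSIG proteins block when sterol is plentiful. When sterol is high, oxysterols bind the LXR receptors, which switch on the exporters ABCA1 and ABCG1. In hematopoietic stem cells (HSCs), export of cholesterol by these transporters is known to restrain proliferation, and cells that take up other cells or their debris are known to receive cholesterol with them.

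The 36 genes described here belong to these programmes. They were chosen by gene symbol from the known pathway, with earlier results of these data known, and comprise 18 synthesis enzymes, 5 sterol regulators, 4 genes of transport and esterification, 5 of efflux and LXR and 4 of fatty acid synthesis, which SREBP also controls. All 36 were found among the 24346 gene symbols of every library. Of them, 35 reached an FPKM (fragments scaled by transcript length and library depth) of at least 1 in at least 2 libraries and were among the 12003 genes tested; Scd1, a fatty acid desaturase, was not.

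RNA was sequenced from bone marrow HSCs (Lin- Sca-1+ c-Kit+ CD48- CD150+) and LSK cells (Lin- Sca-1+ c-Kit+), a broader gate of stem and progenitor cells that also takes in HSCs. Each was cultured for 1 day alone or with red blood cells (RBCs), giving 4 groups of 2 libraries. The WT cells came from C57BL/6 mice, which the study used at 8 to 20 weeks of age. The medium described for HSC cultures was StemSpan SFEM with thrombopoietin and stem cell factor. RBCs came from peripheral blood passed through a leukocyte filter and irradiated, and CD45+ cells were sorted after lysis of the RBCs. The question asked of these genes was whether synthesis and efflux differed with RBCs, and between HSCs and LSK cells.

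The libraries held FPKM totals of 680942 to 752107, and their depth, read from the smallest steps of low genes, differed by no more than 0.787 to 1.01 times that of the first HSC library; the absolute depth is unknown. The stem cell genes Procr, Slamf1, Mecom, Hlf and Fgd5 were higher in both HSC than in both LSK libraries without RBCs, while the progenitor genes Cd48 and Flt3 were higher in LSK cells, by 3.88 and 4.37 times (limma, adjusted p = 8.8e-05 and 3.2e-05). With RBCs in HSCs, the stem cell genes Procr and Kit fell by 0.52 and 0.37 on the log2(FPKM + 1) scale (limma, adjusted p = 0.015 and 0.021). Slamf1 (CD150) stood at 10.2 and 10.7 FPKM without and 5.5 and 6.59 with RBCs. This was the largest difference of the list, at -0.70 (limma, adjusted p = 0.06). Mecom differed by -0.06. Only Ly6a was higher with RBCs, at 388 and 444 FPKM without and 719 and 544 with them. Slamf1, Mecom and Ly6a did not pass in HSCs. Of the progenitor genes, Cd48 and Mpo fell and Cd34 rose (limma, adjusted p = 0.0069, 0.021 and 0.0028). Of 10 red cell genes 8 were in the files, and their sums overlapped, at 282 and 338 FPKM in HSCs without and 308 and 299 with RBCs, and at 111 and 177 against 184 and 119 in LSK cells. Of 6 red cell genes tested, 3 passed in HSCs, all higher with RBCs (Hba-a1, Hbb-b1 and Alas2), and 1 in LSK cells (Hba-a1). Hba-a1 (an alpha globin) stood between 32.9 and 116 FPKM in the libraries with RBCs and between 0.0826 and 1.53 without. Hbb-b1 stood at 1.93 and 1.94 in HSCs without and 65.1 and 31 with RBCs. In LSK cells it stood at 0.907 and 2.12 against 0.0438 and 0.0145. Hbb-bs stood at 0.00522 and 0.172 in LSK cells without and 18.9 and 19.4 with RBCs. In HSCs Hbb-bs stood at 0.0123 and 0.0386 against 0.00753 and 19.1, and it passed in neither cell type. Alas2, which is not a globin gene, stood at 0.0785 and 0.0958 in HSCs without and 2.28 and 1.6 with RBCs. Hbb-b2 (a beta globin) stood at 279 and 335 in HSCs without and 120 and 158 with RBCs, and at 109 and 173 against 128 and 54.1 in LSK cells. Globin genes are near-identical copies, and reads may be split between them. In bulk RNA, a change in the number of cells of one type and a change in RNA per cell cannot be told apart.

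The synthesis genes were expressed throughout the pathway in every library. Fdps, which makes farnesyl diphosphate, had the highest level of the list, with a mean of 137 FPKM over the 8 libraries, followed by the methylsterol oxidase Msmo1 at 76.6 and the isopentenyl isomerase Idi1 at 72.8. At the other end were the late-step reductases Hsd17b7 at 3.33 and Tm7sf2 at 4.92, then Mvk (mevalonate kinase) at 8.21 and Lss (lanosterol synthase) at 8.58. The FPKM unit is scaled by transcript length, which allows this order between genes. Tm7sf2 shares its reaction with Lbr, which stood 18.7 to 39.2 times higher than Tm7sf2 in FPKM.

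Levels of synthesis genes varied little between libraries. In 16 of the 18, the highest of the 8 libraries was under 1.5 times the lowest, the exceptions being Mvk at 1.55 and Tm7sf2 at 2.34 times; this held for 49.1% of all genes tested, which include many of lower level. Idi1 ranged from 68.3 to 75.7 FPKM, Fdft1 (squalene synthase) from 23.5 to 26.5 and Msmo1 from 72.0 to 82.2. The 5 regulators were all under 1.5 times as well. None of the 4 transport genes was, and 2 of the 5 efflux and LXR genes were.

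**Figure D1:**
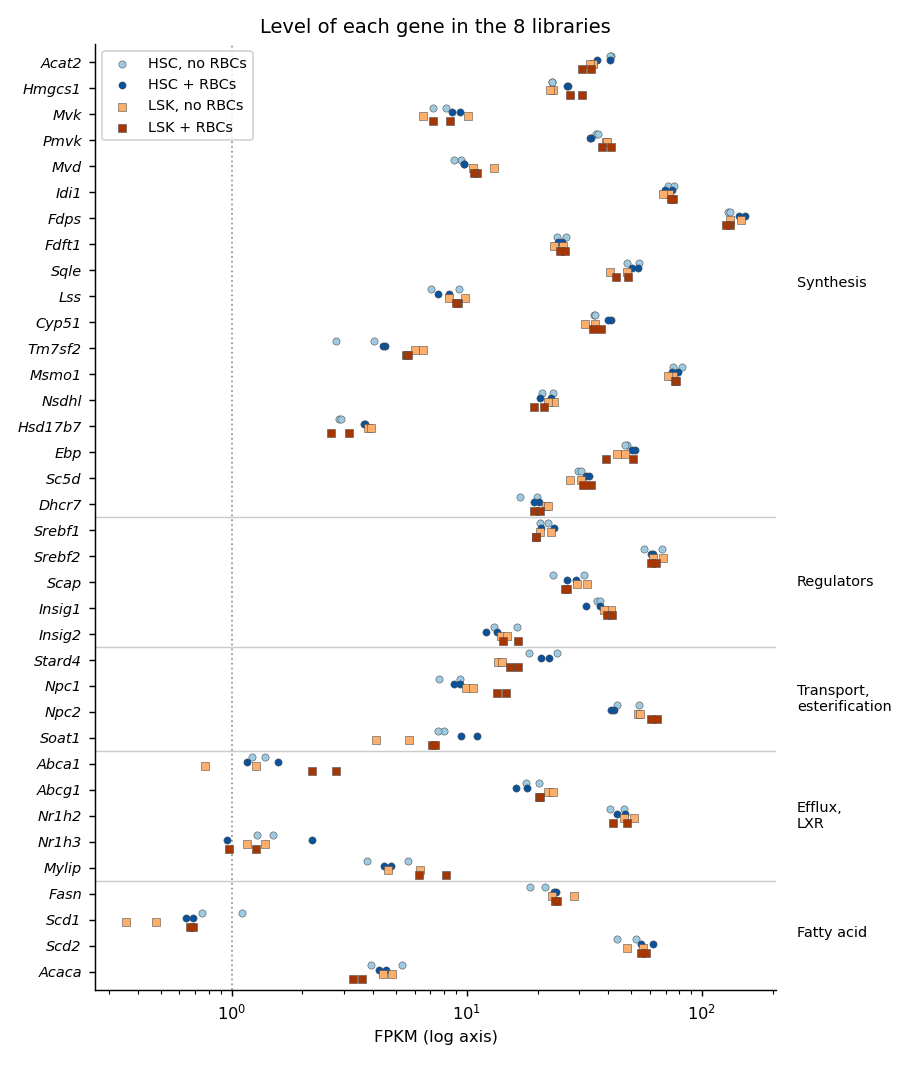
FPKM of each of the 36 genes (rows, grouped by role) in the 8 libraries on a log axis, with circles for HSCs, squares for LSK cells and darker symbols for cultures with RBCs; the dotted line marks 1 FPKM. Synthesis genes and regulators form tight clusters, while Abca1 spreads from 0.771 to 2.77 FPKM and Scd1 stays at or near 1 FPKM or below.

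In HSCs, no synthesis gene, and none of the 35 genes tested, passed the threshold of an adjusted p under 0.05 with RBCs against 2.53% of all genes tested. At an unadjusted p under 0.05 there were 5, all higher with RBCs, or 14.3% of the 35 against 13.7% of all genes in either direction and 6.76% with higher values. They were Hmgcs1 (HMG-CoA synthase), Fdps, Cyp51 (lanosterol demethylase), Soat1 (which esterifies cholesterol for storage) and Scd2 (a stearoyl-CoA desaturase). Fdps stood at 129 and 132 FPKM without RBCs and at 153 and 144 with them, a log2 difference of 0.19 (95% CI 0.03 to 0.35, limma, adjusted p = 0.27). Cyp51 stood at 34.7 and 35.0 against 41.2 and 39.7, a log2 difference of 0.21 (0.02 to 0.40, adjusted p = 0.31). Neither gene's groups overlapped, yet both differences were small. Among the 18 synthesis genes the largest difference was in Tm7sf2 at 0.32 (-0.04 to 0.69, adjusted p = 0.44) and the lowest in Acat2 (the cytosolic thiolase that begins the pathway) at -0.11 (-0.30 to 0.09, adjusted p = 0.69).

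In LSK cells, again none of the 35 genes passed with RBCs, against 3.45% of all genes tested. At an unadjusted p under 0.05 there were 4, or 11.4% against 18.6% of all genes, and all 4 were higher with RBCs, against 9.52% of all genes in that direction: Hmgcs1, Soat1, Abca1 and Npc1, which moves cholesterol out of the late endosome and lysosome. Among synthesis genes Hmgcs1 differed most, at a log2 value of 0.33 (95% CI 0.13 to 0.53, adjusted p = 0.081). Hsd17b7 lay at the other end, at 3.82 and 3.93 FPKM without RBCs and 2.64 and 3.17 with them, a log2 difference of -0.32 (-0.65 to 0.01, adjusted p = 0.28). As a list, the 18 synthesis genes had a median log2 difference of 0.10 for HSCs, beside -0.006 over all genes tested, and of -0.02 for LSK cells, beside -0.010.

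The intervals bounded these differences for these libraries, on the FPKM + 1 scale, which understates changes of low genes. The 95% confidence interval lay within 1.5-fold in either direction for 15 of the 18 synthesis genes in HSCs and for 17 of them in LSK cells, and within 2-fold for all 18 in both. Over all 35 genes tested, the interval lay within 1.5-fold for 30 in HSCs and for 28 in LSK cells. For Fdft1 it ran from -0.23 to 0.18 on the log2 scale in HSCs, and for Sqle (squalene epoxidase) from -0.21 to 0.26. With 2 libraries against 2, an exact permutation test cannot give a p below 0.33, so the tests rest on the spread that limma pools over groups and genes. The labels do not say whether replicates were separate cultures or animals. P-values and intervals therefore measure the spread between these libraries, which may be technical.

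**Figure D2:**
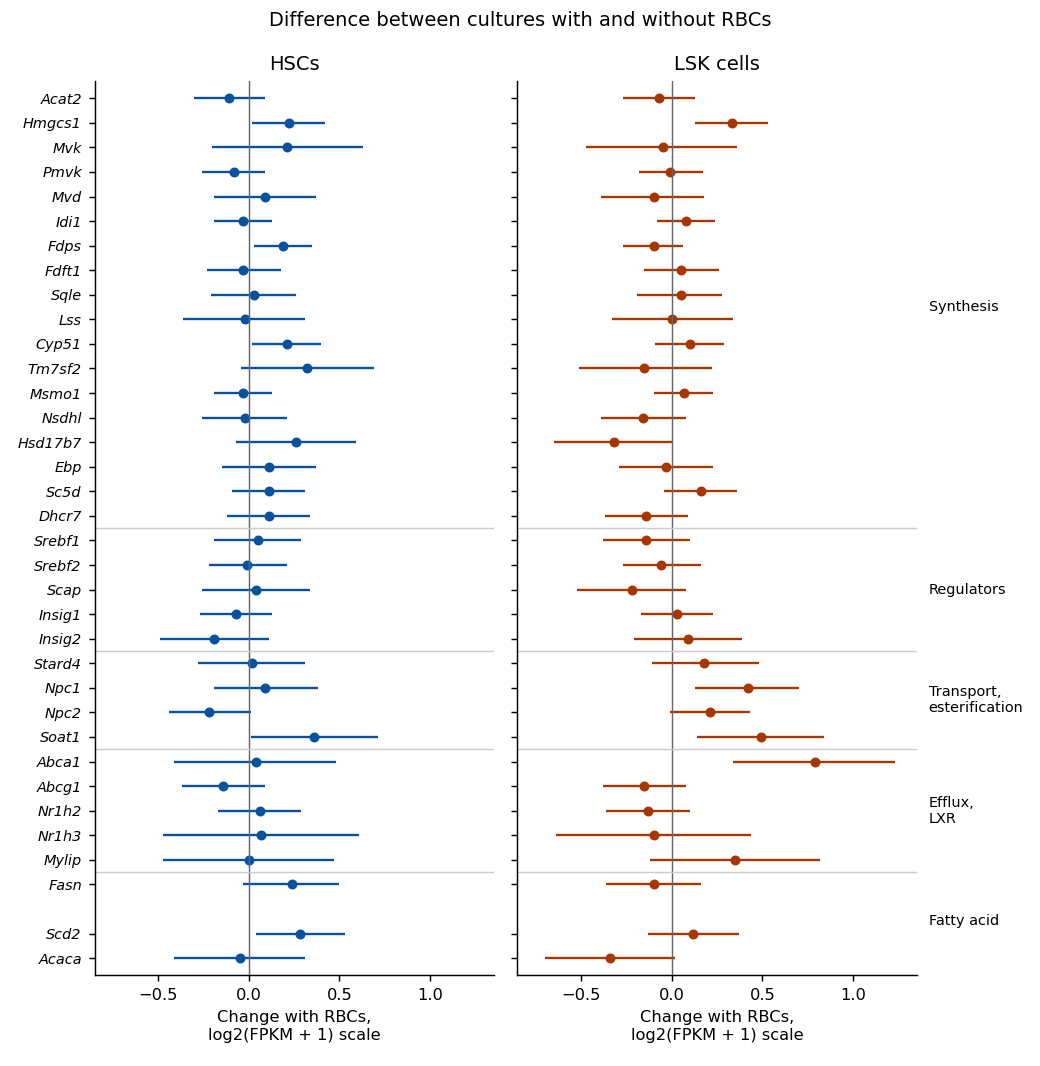
Difference between cultures with and without RBCs on the log2(FPKM + 1) scale for the 35 genes tested, in HSCs (left) and LSK cells (right), with points for estimates and bars for 95% confidence intervals; positive values are higher with RBCs. Most bars cross 0, and the point farthest from 0 is Abca1 in LSK cells at 0.79.

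When the RBC effect was averaged over both cell types, Hmgcs1 was the only 1 of the 35 genes to pass, against 5.37% of all genes tested. It stood at 23.0 and 23.0 FPKM in HSCs without RBCs and at 27.0 and 26.8 with them. In LSK cells it stood at 23.2 and 22.6 without and at 27.4 and 30.8 with RBCs. All 4 libraries with RBCs were above all 4 without. The mean effect was 1.21-fold (95% CI 1.1 to 1.33) or 0.28 on the log2(FPKM + 1) scale (SE 0.0616, limma, adjusted p = 0.036). The call was close to the threshold: leaving out any single library gave 0.24 to 0.32 with adjusted p of 0.049 to 0.13, and only without LSK_RBC replicate 1 did it still pass. At an unadjusted p under 0.05 there were 6 of the 35, or 17.1% against 18.6% of all genes. Hba-a1, Csf1r and Csf3r were also higher with RBCs in each cell type, with no overlap. Of these, only Hba-a1 had all 4 libraries with RBCs above all 4 without. The mean effect was 5.07 for Hba-a1 and 1.38 for Csf1r, the receptor of monocytes and their progenitors (limma, adjusted p = 6.6e-06 and 8.3e-04). It was 0.57 for Csf3r, the receptor of granulocyte colony-stimulating factor, and -0.93 for Hbb-b2 (limma, adjusted p = 0.0017 and 0.067). Of the 6 red cell genes tested, 4 passed for the mean effect, all higher with RBCs (Hba-a1, Hbb-b1, Hbb-bs and Alas2). Of the 8 stem cell genes 3 passed, all lower with RBCs (Slamf1, Kit and Fgd5). The part of these genes in the result was not tested.

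Hmgcs1 (chr13:119690379-119708260, plus strand, GENCODE M21 on GRCm38) makes HMG-CoA, the precursor of mevalonate, and is a classic SREBP target. Its promoter is shown because it is the one gene of the set that passed with RBCs, and beside it that of Abca1, the efflux gene with the largest difference. The stretches are reference sequence upstream of the RefSeq start (GRCm38.p6), with capitals marking letters of a sterol response element (TCACNCCAC), a CCAAT box (CCAAT, or ATTGG on the other strand) and an E-box (CACGTG).
Hmgcs1, chr13:119690101-119690321, plus strand, from 250 to 30 bases upstream: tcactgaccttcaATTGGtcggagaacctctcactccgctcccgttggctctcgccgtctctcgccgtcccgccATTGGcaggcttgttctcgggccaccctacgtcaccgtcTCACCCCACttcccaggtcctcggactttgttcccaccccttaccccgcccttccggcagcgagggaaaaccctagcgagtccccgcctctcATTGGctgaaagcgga
Abca1, chr4:53159995-53160145, minus strand, from 250 to 100 bases upstream: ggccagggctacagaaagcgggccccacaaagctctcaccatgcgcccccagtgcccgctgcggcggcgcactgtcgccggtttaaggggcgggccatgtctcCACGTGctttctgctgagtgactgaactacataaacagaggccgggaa
The sterol response element letters of Hmgcs1 lay 137 to 129 bases upstream, between ATTGG matches on either side, and the E-box letters of Abca1 lay 147 to 142 bases upstream.

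Promoters were found for 28 of the 36 genes, and 250 bases upstream of each start were searched on both strands. Hmgcs1 alone held TCACNCCAC, which was present in 1.22% of the 27025 genes with a promoter. CCAAT was present in 22 of the 28, and in 14 of the 15 synthesis genes with a promoter, against 37.5% of genes, and GGGCGG, the GC box, also in 22 of the 28 against 35.4%. CACGTG was present in 6 of the 28 (Hsd17b7, Sc5d, Dhcr7, Scap, Insig1 and Abca1) against 6.86%. The exact direct repeat of AGGTCA spaced by 4 bases, 1 form of the site that LXR binds, was in none of the 28. It was in only 0.0148% of genes, so its absence from 28 cannot show whether they hold LXR sites. Matches of this kind are a description of letters in this window and not of binding, and the motifs searched did not overlap each other in the stretches shown.

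The regulators stood at steady levels with and without RBCs. Srebf2, whose protein mainly drives the synthesis genes, ranged from 56.5 to 68.2 FPKM and stood 2.58 to 3.27 times above Srebf1, whose protein mainly drives fatty acid genes. Insig1, which is itself an SREBP target, ranged from 32.2 to 41.5 FPKM and stood 2.18 to 3.07 times above Insig2. Both ratios kept their order in all 8 libraries. None of the 5 regulators passed with RBCs. The largest differences were in Insig2 in HSCs, at -0.19 (95% CI -0.49 to 0.11, adjusted p = 0.63), and in Scap in LSK cells, at -0.22 (-0.52 to 0.08, adjusted p = 0.42). Insig1 differed by -0.07 (-0.27 to 0.13) in HSCs and by 0.03 (-0.17 to 0.23) in LSK cells.

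Among efflux genes the levels were uneven. Abcg1, which exports cholesterol to high-density lipoprotein, stood at 16.2 to 23.3 FPKM, 7.42 to 28.7 times above Abca1, which exports it to lipid-poor apolipoprotein. The LXR receptor gene Nr1h2 stood at 40.5 to 51.3 FPKM, while Nr1h3, the LXR gene known for high expression in macrophages and liver, stood at 0.957 to 2.2, with at least 18 to 52 fragments per library. Mylip, an LXR target whose product degrades lipoprotein receptors, stood at 3.75 to 8.18 FPKM.

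Abca1 (chr4:53030787-53159895, minus strand) stood at 0.771 and 1.27 FPKM in LSK cells without RBCs and at 2.19 and 2.77 with them. In HSCs it stood at 1.22 and 1.39 without and at 1.16 and 1.58 with RBCs. The LSK groups were separate, and those of HSCs overlapped. In LSK cells the mean FPKM was 2.43 times higher with RBCs, and the log2(FPKM + 1) difference, which understates changes of low genes, was 0.79 (SE 0.198, 95% CI 0.34 to 1.23, limma, adjusted p = 0.069). In HSCs it was 0.04 (-0.41 to 0.48, adjusted p = 0.97). The difference between the cell types was -0.75 (HSC effect minus LSK effect, 95% CI -1.38 to -0.12, adjusted p = 0.32) and did not pass, nor did that of any of the 35 genes, against 0.133% of all genes tested. The LSK values came from at least 102, 187, 256 and 344 fragments per library, and adjusted p ranged from 0.06 to 0.30 over the alternative settings.

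None of the other efflux and LXR genes passed in LSK cells. Abcg1 stood at 22.1 and 23.3 FPKM in LSK cells without RBCs and at 20.2 and 20.5 with them, a log2 difference of -0.15 (95% CI -0.38 to 0.08, adjusted p = 0.49). Mylip stood at 4.61 and 6.31 against 6.26 and 8.18, with groups that overlapped and a difference of 0.35 (-0.12 to 0.82, adjusted p = 0.41). Nr1h2 differed by -0.13 (-0.36 to 0.10) and Nr1h3 by -0.10 (-0.64 to 0.44).

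Soat1 and the endosomal transporters were the other genes with values that stood apart. Soat1 (chr1:156424525-156474331, minus strand) stood at 7.99 and 7.53 FPKM in HSCs without RBCs and at 9.45 and 11 with them. In LSK cells it stood at 5.70 and 4.11 without and at 7.09 and 7.32 with RBCs. The libraries with RBCs were higher in each cell type, with no overlap. The mean effect over both was 0.42 on the log2 scale (SE 0.11, 95% CI 0.17 to 0.67, limma), with an adjusted p of 0.063 that missed the threshold; without LSK_Ctrl replicate 1 it was 0.52, with an adjusted p of 0.035. Npc1 stood at 9.89 and 10.6 in LSK cells without RBCs and at 13.4 and 14.7 with them, a difference of 0.42 (0.13 to 0.70, adjusted p = 0.12), and in HSCs differed by 0.09 (-0.19 to 0.38). All 4 transport genes had positive differences in LSK cells, with a median of 0.31, and none passed.

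In LSK cells, the summed FPKM of myeloid genes was also higher in the libraries with RBCs in which Abca1, Npc1 and Soat1 were higher. The summed FPKM of 12 macrophage and monocyte genes was 308 to 394 without RBCs and 515 to 632 with them, and that of 10 neutrophil genes 187 to 282 and 444 to 648. Of 6 macrophage and monocyte genes tested 2 passed (Csf1r and Ctss), and of 10 neutrophil genes 3 passed (Retnlg, Mmp8 and Mmp9). All 5 were higher with RBCs. S100a8 and S100a9, which hold much of the neutrophil sum, did not pass (limma, adjusted p = 0.33 and 0.36). Csf1r rose from 14.1 and 22.8 FPKM to 47.2 and 54.3 (log2 difference 1.44, adjusted p = 0.0075). Of the 12 macrophage and monocyte genes 5 were under 1 FPKM in every library; C1qa was at 0 throughout, and Adgre1 and Mrc1 reached no more than 0.566 and 0.185 FPKM. In HSCs the macrophage list summed to 440 and 478 without RBCs and to 378 and 384 with them, and the neutrophil list to 39.3 and 32.4 without and 297 and 88.4 with them. Most of that macrophage sum was Lyz2 (lysozyme), at 312 and 321 without and 221 and 218 with RBCs. Lyz2 was also most of the sum in LSK cells, at 296 and 196 without and 341 and 454 with RBCs. It did not pass there (limma, adjusted p = 0.071). Csf1r rose in HSCs too, from 2.53 and 2.81 to 7.07 and 9.37 (log2 difference 1.32, limma, adjusted p = 0.012). The part of these genes, or of cells that express them, in the result was not tested.

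**Figure D3:**
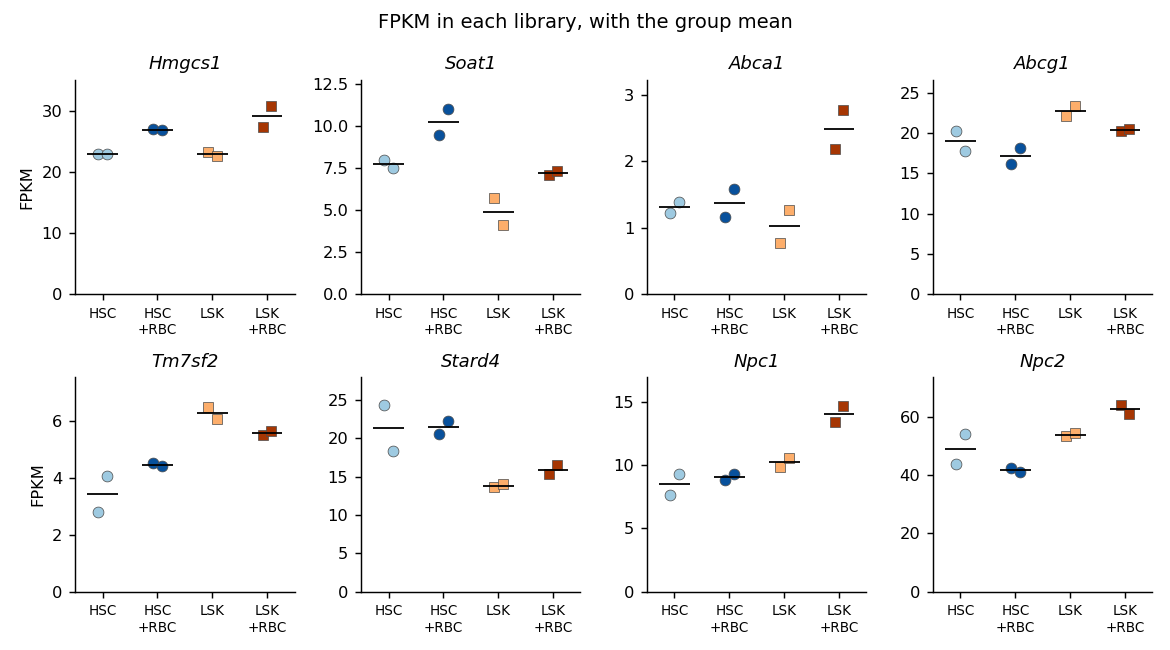
FPKM of 8 genes in each of the 8 libraries, with points for libraries and a line for the mean of each group of 2, on axes from 0. Hmgcs1 and Soat1 are higher with RBCs in both cell types, Abca1 and Npc1 in LSK cells, and Stard4 is lower in LSK cells than in HSCs.

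Counted by libraries that did not overlap, 12 of the 35 genes had both HSC libraries with RBCs above both without, or 34.3% against 19.9% of all genes tested, and 3 had both below, against 21.8%. The 12 included 9 of the 18 synthesis genes (Hmgcs1, Mvk, Mvd, Fdps, Cyp51, Tm7sf2, Hsd17b7, Ebp and Sc5d), with Soat1, Fasn and Scd2. In LSK cells 9 genes were above, against 24.2% of all genes, and 9 were below, against 26.4%. Hmgcs1, Sc5d (the sterol desaturase of lathosterol) and Soat1 were above in both cell types. Fdps, Tm7sf2 and Hsd17b7 were above in HSCs and below in LSK cells, and Npc2 the reverse. At an unadjusted p under 0.05 for the difference between the cell types there were 4 of the 35 genes (Fdps, Hsd17b7, Npc2 and Abca1), or 11.4% against 12.5% of all genes tested. The difference was 0.59 for Hsd17b7 (95% CI 0.12 to 1.05, adjusted p = 0.30) 0.29 for Fdps (0.06 to 0.52, adjusted p = 0.30) and -0.43 for Npc2 (-0.75 to -0.11, adjusted p = 0.27), and none passed.

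Synthesis was compared with efflux as the mean log2(FPKM + 1) of the 18 synthesis genes minus that of the 5 efflux and LXR genes in each library. The synthesis mean lay between 4.63 and 4.73 in all 8 libraries. The difference between the lists was 1.62 and 1.75 in HSCs without RBCs, and 1.87 and 1.66 with them. In LSK cells it was 1.77 and 1.61 without, and 1.61 and 1.43 with RBCs. As group means these were 1.69 ± 0.089, 1.77 ± 0.15, 1.69 ± 0.11 and 1.52 ± 0.12 (SD, n = 2). The groups overlapped in HSCs and met at 1.61 in LSK cells, so that neither the change of 0.08 in HSCs nor that of -0.17 in LSK cells was clear of the spread between libraries. With the receptors Nr1h2 and Nr1h3 left out of the efflux list, the difference between the lists in LSK cells was 2.09 and 1.82 without and 1.70 and 1.52 with RBCs, so that the groups no longer overlapped, and the change was -0.35. In HSCs it was 1.87 and 2.06 without and 2.15 and 2.02 with RBCs, and the groups overlapped. No test was made of either form.

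**Figure D4:**
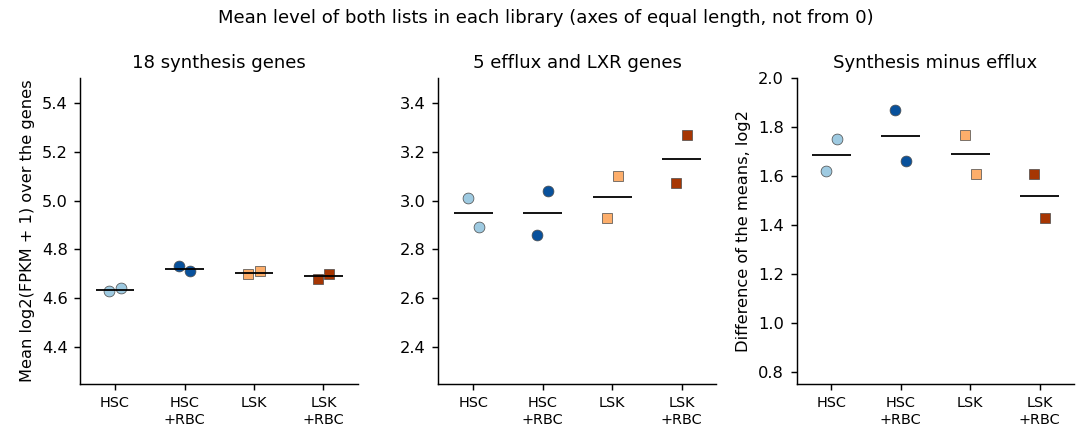
Mean log2(FPKM + 1) of the 18 synthesis genes (left), of the 5 efflux and LXR genes (middle) and their difference (right) in each library, with points for libraries and lines for group means; axes span equal lengths and do not start at 0. The synthesis means stay within 4.63 to 4.73, and the difference is lowest in LSK cells with RBCs.

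Between the cell types, 3 of the 35 genes passed without RBCs, or 8.57% against 14.2% of all genes tested. Tm7sf2 (chr19:6062821-6068373, minus strand), a sterol reductase, stood at 2.78 and 4.04 FPKM in HSCs and at 6.49 and 6.04 in LSK cells. On the FPKM + 1 scale it was 1.66-fold higher in LSK cells (95% CI 1.29 to 2.15, limma, adjusted p = 0.017). Its mean FPKM was 1.84 times higher. The gene overlaps Vps51 on the same strand, and its values came from at least 52 to 112 fragments. Stard4, a cytosolic sterol carrier and SREBP target, stood at 24.3 and 18.4 in HSCs and at 13.6 and 14.1 in LSK cells, a log2 difference of -0.58 (-0.87 to -0.28, adjusted p = 0.019). Soat1 was lower in LSK cells by the same log2 difference, -0.58 (-0.93 to -0.23, adjusted p = 0.037). Groups were separate for all 3. None of the 3 passed without HSC_Ctrl replicate 1, where the log2 differences were 0.53, -0.38 and -0.54, or without LSK_Ctrl replicate 2, where they were 0.78, -0.60 and -0.39. Tm7sf2 and Stard4 also did not pass without LSK_Ctrl replicate 1 (0.69 and -0.55), and Soat1 passed only with that library left out (-0.78) of the 8.

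With RBCs, 3 of the 35 passed as well, 8.57% against 24.4% of all genes tested, and only Stard4 was among both sets. Npc2 (chr12:84754562-84773152, minus strand), the soluble partner that hands cholesterol to NPC1, stood at 42.3 and 40.9 FPKM in HSCs and at 64.1 and 61.0 in LSK cells, 1.49-fold higher (95% CI 1.28 to 1.74, limma, adjusted p = 0.0036). It passed with any single library left out. Npc1 stood at 8.85 and 9.33 against 13.4 and 14.7, also 1.49-fold higher (1.22 to 1.81, adjusted p = 0.011), and did not pass without HSC_RBC replicate 1 or LSK_RBC replicate 2 (log2 0.54 and 0.51). It overlaps Rmc1 on the other strand, and the libraries do not mark strand. Stard4 differed by -0.41 (-0.70 to -0.12, adjusted p = 0.048) and passed in 2 of the 8 fits that left out a library, those without either HSC_Ctrl replicate, with -0.46 to -0.36 over all 8. Macrophage and neutrophil gene sums were higher in LSK cells than in HSCs with RBCs, at 515 to 632 against 378 to 384 and at 444 to 648 against 88.4 to 297. The macrophage sum was mostly Lyz2, at 341 and 454 against 221 and 218. Of 6 macrophage and monocyte genes tested, Lyz2 and Csf1r passed as higher in LSK cells. Cd68 passed as lower, at 68.1 and 58.5 against 96.3 and 98.9. Of 10 neutrophil genes 5 passed, all higher in LSK cells. The part of these genes in the result was not tested.

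None of the regulators or of the efflux and LXR genes passed between the cell types, without or with RBCs, though 1 of them did with RBCs under each of 2 alternatives, Abca1 with no trend in the fit and Mylip with the groups of the contrast alone. The intervals of Srebf1, Srebf2, Scap, Insig1 and Insig2 all lay within 1.5-fold in both comparisons. With RBCs, Abca1 was 0.56 higher in LSK cells on the log2 scale (95% CI 0.11 to 1, adjusted p = 0.07), Mylip 0.54 (0.08 to 1.01, adjusted p = 0.086) and Abcg1 0.24 (0.01 to 0.47, adjusted p = 0.12).

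The 3 fatty acid genes tested also did not pass in any comparison. Scd2 stood 47.0 to 159 times above its neighbour Scd1, which it resembles in sequence, and ranged from 43.6 to 61.9 FPKM. In HSCs Scd2 differed by 0.28 with RBCs (95% CI 0.04 to 0.53, adjusted p = 0.28), and Fasn (fatty acid synthase) by 0.24 (-0.03 to 0.50, adjusted p = 0.43). Acaca, which makes malonyl-CoA, stood at 4.41 and 4.79 in LSK cells without RBCs and at 3.29 and 3.57 with them, a difference of -0.34 (-0.70 to 0.02, adjusted p = 0.29).

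Further genes of the same programmes, not among the 36, were counted in the same fit. Of 24 others on the SREBP side, none passed with RBCs in HSCs or in LSK cells. At an unadjusted p under 0.05 there were 6 and 8, or 25% against 13.7% of all genes and 33.3% against 18.6%. Most of these were lower with RBCs. In HSCs Fads2 and Por were higher, and Me1, Cyb5r3, Pgrmc1 and Idh1 lower. In LSK cells Fads2 and Idh1 were higher, and Acly, Me1, Tmem97, Lbr, Cyb5r3 and Pgrmc1 lower. Of all 24, 12 had positive differences in HSCs and 8 in LSK cells. For the mean effect 3 passed, or 12.5% against 5.37%. Fads2, the rate-limiting desaturase of polyunsaturated fatty acids, rose by 1.52-fold (95% CI 1.27 to 1.82, adjusted p = 0.018), with HSC libraries at 94.6 and 63.5 FPKM without RBCs against 117 and 127, and LSK libraries at 53.3 and 63.6 against 81.1 and 91.8. Me1 (malic enzyme, a source of NADPH) fell by 0.44 (adjusted p = 0.032) and Cyb5r3 (cytochrome b5 reductase) by 0.21 (adjusted p = 0.045) on the log2 scale. Of 19 others on the LXR side, 15 were tested and none passed for HSCs, for LSK cells or for the mean effect. At an unadjusted p under 0.05 there were 2, 6 and 3, or 13.3%, 40% and 20% of the 15, against 13.7%, 18.6% and 18.6% of all genes. They went in both directions for LSK cells and the mean effect, and Smpdl3a and Lpl were both lower in HSCs. Between the cell types, 5 of the 24 and 2 of the 15 passed without RBCs, or 20.8% and 13.3% against 14.2% of all genes. With RBCs 6 and 3 passed, or 25% and 20% against 24.4%, with Idh1 (a cytosolic source of NADPH) 2.13-fold higher in LSK cells with RBCs (adjusted p = 5.7e-05).

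Some values could mix reads of different genes. The Acat2 transcript shares 65.6% of its length with Acat3 at 95% identity or more, that of Fdps 76.8% with the annotated gene Gm3571, and that of Acaca 64.3% with Gm5182. Cyp51 and Fdft1 overlap Akap9 and Ctsb on the other strand. None of the 5 passed in any comparison. Of the genes that did pass, Hmgcs1 and Soat1 overlap Gm48342 and Gm37648 on the other strand. The Soat1 transcript also shares short stretches with 43 other genes, at most 1.67% of its length with any of them.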

How the data were processed

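The authors deposited 1 FPKM value per gene symbol and library, made from full-length cDNA libraries that do not mark strand; the submitters' processing notes name TopHat2 2.1.1, Bowtie2 2.2.8, SAMtools 0.1.18, Cuffdiff 2.2.1 and the mm10 genome. Replicates were not pooled. The members and lists were chosen with earlier results of these data known.

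Values were taken as log2(FPKM + 1), and genes that reached an FPKM of 1 in fewer than 2 libraries were dropped, which left 12003. Fold values from the fit are therefore on the FPKM + 1 scale, which understates changes of low genes. The 4 group means were fitted in a single limma model (limma 3.58.1, R 4.3.3) with the trend option and no replicate block (4 residual degrees of freedom, prior 5.18), and p-values were Benjamini-Hochberg adjusted over all 12003 genes. A gene passed at an adjusted p under 0.05, with no fold threshold. The script was tested on simulated data. Scores over lists were given no test.

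All 36 genes could be named. Full statistics went to those that passed and, in each list, to the largest and smallest changes with RBCs; of other lists, to genes that passed. Whole fragments were recovered for 25 of the 36 genes (tolerance 0.02), as lower bounds that cover counting only, since molecules were not counted. Alternatives covered the pseudocount, filter, scaling, samples fitted, replicate block, trend, fold threshold and omission of each library.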

Additional observations from a re-analysis of the deposited data

How the results depend on the processing

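No gene passed for the RBC effect in HSCs, in LSK cells or for their difference under any of the 16 or 17 alternatives. For the mean RBC effect, the count of 1 gene became 0 with no filter on low FPKM, with the replicate block, with no trend and at a 2-fold threshold, and ranged from 0 to 1 with 1 library left out. Without RBCs, the count of 3 between LSK cells and HSCs became 0 with no filter, at the 2-fold threshold and with the groups of the contrast alone in the fit, and ranged from 0 to 2 with 1 library left out. With RBCs, the count of 3 became 0 at the 2-fold threshold and 6 with the groups of the contrast alone, and ranged from 1 to 3. Genes outside the reported sets that passed between the cell types were, with RBCs, Fdps, Soat1 and Mylip in that smaller fit, Abca1 with no trend, Soat1 with quantile scaling or without either LSK_Ctrl replicate and Ebp without LSK_RBC replicate 1, and, without RBCs, Fasn without LSK_Ctrl replicate 1. Synthesis minus efflux in LSK cells changed by -0.347 with the receptors left out, and by -0.256 to -0.082 with 1 library left out; in HSCs the change was -0.023 to 0.186. No value that passed turned its direction. Median-ratio and quantile scaling moved the median of all genes by at most 0.021 in size. The cause of these shifts was not tested, apart from the threshold and the smaller fits, which act by construction. Omitting a library leaves a group with 1, assumed to vary like the others.

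The replicate numbers are shared between groups, but deviations of same-numbered libraries correlated at only -0.07 to 0.10 over 12003 genes, so the numbers were not taken as a pairing. With the replicate block, the adjusted p of Hmgcs1 for the mean RBC effect was 0.059, and Soat1 without RBCs (0.057) and Stard4 with RBCs (0.07) no longer passed between the cell types. Depth limits Nr1h3, Scd1 and Tm7sf2 most, at 18 to 112 fragments per library.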

Other observations

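Among other genes of sterol and lipid handling, 5 had RBC effects of opposite sign in the 2 cell types at an unadjusted p under 0.01 for the difference. They were chosen after their values were seen, and the share of all genes at that cut-off was not counted. None of the 5 passed after adjustment. Smpdl3a, an LXR target, stood at 84.9 and 96.9 FPKM in HSCs without RBCs and at 76.8 and 69.9 with them, and in LSK cells at 79.7 and 80.8 without and 95.6 and 93.0 with RBCs. The HSC effect minus the LSK effect was -0.54 on the log2 scale (95% CI -0.80 to -0.28, limma, adjusted p = 0.14). Nceh1, a cholesterol ester hydrolase, stood at 23.6 and 26.1 against 22.0 and 22.8 in HSCs, and at 19.7 and 20.3 against 27.0 and 24.9 in LSK cells, with a difference of -0.50 (-0.79 to -0.21, adjusted p = 0.19). Idh1 differed by -0.47 (limma, adjusted p = 0.18) and Lpl (lipoprotein lipase) by -1.03 (limma, adjusted p = 0.17). Lpl was low in LSK cells, at 0.515 and 0.516 FPKM without and 0.827 and 0.78 with RBCs. Cyp27a1 (sterol 27-hydroxylase) differed by -1.04 (limma, adjusted p = 0.24), with levels of 1.34 to 3.94 FPKM. At an unadjusted p under 0.05 for the difference there were 4 of the 15 tested genes on the LXR side (26.7%). On the SREBP side there were 3 of the 24 (12.5%), against 12.5% of all genes tested. In LSK cells the summed level of macrophage and monocyte genes, most of it Lyz2, was also higher with RBCs, at 515 to 632 FPKM against 308 to 394. Its part in the result was not tested.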
